A study of Mus musculus with 2 samples.

Results

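Transcription factors of the bZIP class were measured in polyadenylated RNA of mouse bone marrow-derived macrophages. These phagocytes were cultured from marrow of C57BL/6J mice. The 43 genes were chosen by symbol from the AP-1, ATF, CREB, C/EBP, MAF, CNC and PAR families, and all 43 were found among the 55536 genes of the deposited table, of which 22028 are protein-coding. The cells had a first exposure of 12 h to 100 ng/mL of Lipid A, the Tlr4-binding part of bacterial lipopolysaccharide, then 12 h after washing, and then a second exposure to 100 ng/mL that lasted 30 min. Lipid A is the name in the free text, whereas the treatment field reads lipoprotein A, and which is right could not be settled. Both libraries, labelled as biological replicates, belong to the only group, and an untreated library was not analysed here, so the values are levels after the second exposure and not changes caused by it. Each library has a biosample record of its own, but the donor record is shared, and separate animals are not stated. Age and sex were not recorded.

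A bZIP protein has a basic region that touches DNA and, next to it, a leucine zipper through which it pairs with a second bZIP protein. Which proteins pair sets which DNA element is bound: Fos with Jun on AP-1 sites, CREB and ATF proteins on cyclic AMP elements, C/EBP proteins on CCAAT-like elements, and the small Maf proteins with CNC partners on antioxidant elements. In macrophages the class includes factors of lineage identity such as C/EBP alpha and c-Maf, early genes switched on by MAP kinases such as Fos and Junb, and effectors of protein folding, amino acid and oxidative stress such as Xbp1, Atf4 and Nrf2.

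The gene table summed to 30780681 counts for replicate 2 and 41938419 for replicate 1. All 7 macrophage markers were detected, with a summed level of 17698 TPM in replicate 2 and 15580.5 TPM in replicate 1, led by Lyz2, the lysozyme of myeloid cells, at 11648 TPM in replicate 2 and 8427 TPM in replicate 1. Of these markers 5 were lower in replicate 2, and the median log2 ratio of the list, replicate 2 over replicate 1, was -0.25. Cd14, the co-receptor of Tlr4, was 2-fold higher in replicate 2, at 428 TPM against 202 TPM in replicate 1. TPM, the transcript share scaled to a fixed library total, is a level scaled for transcript length, and a gene is called detected here at 1 TPM or more in both libraries. Of 7 neutrophil and promyelocyte markers 2 were detected, and their summed level was 9.88 TPM in replicate 2 against 75.2 TPM in replicate 1, with S100a9 highest at 5.28 and 40.05 TPM. The granule genes Elane and Mpo were at 0 in replicate 2 and at 0.15 and 0.33 TPM in replicate 1. The megakaryocyte gene Pf4 stood at 115 TPM in replicate 2 and 259 TPM in replicate 1, while the other 5 erythroid and megakaryocyte markers were below 1 TPM. All 6 stromal markers were detected, with a summed level of 646 TPM in replicate 2 and 569 TPM in replicate 1 and Col1a1 highest at 243 and 214 TPM. No T cell or mast cell marker was detected, whereas Cd79b of B cells, at 3.96 TPM in replicate 2 and 7.78 TPM in replicate 1, and Ccr7 of dendritic cells, at 2.41 TPM in replicate 2 and 2.61 TPM in replicate 1, were the detected markers of their lists. The ribosomal RNA entry CT010467.1 took 4.25% of counts in replicate 2 and 1.37% in replicate 1.

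Most of the listed genes were expressed. Of the 43 genes 37 were detected, or 86.0%, against 48.7% of all protein-coding genes. The 43 were chosen with earlier results of these data known, so this share describes the list and not the whole class. Of 11 further bZIP genes outside the list 7 were detected, or 63.6%. The detected members had a median of 36.1 TPM in replicate 2 and 39.5 TPM in replicate 1, and detected protein-coding genes as a whole had medians of 16.4 and 17.5 TPM. The 10 members at 100 TPM or more in both libraries were Junb, Ddit3, Atf3, Fos, Atf4, Nfe2l2, Nfe2l1, Maf, Xbp1 and Batf. With these, 31 members had a mean of 10 TPM or more, and 8 had a mean between 1 and 10 TPM. The members below 1 TPM in both libraries were Cebpe, Bach2, Hlf and Fosl1, while Fosb and Nfe2 were below 1 TPM in 1 library each. Junb had the highest level of the 43 in replicate 2 and Atf3 in replicate 1.

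**Figure D1:**
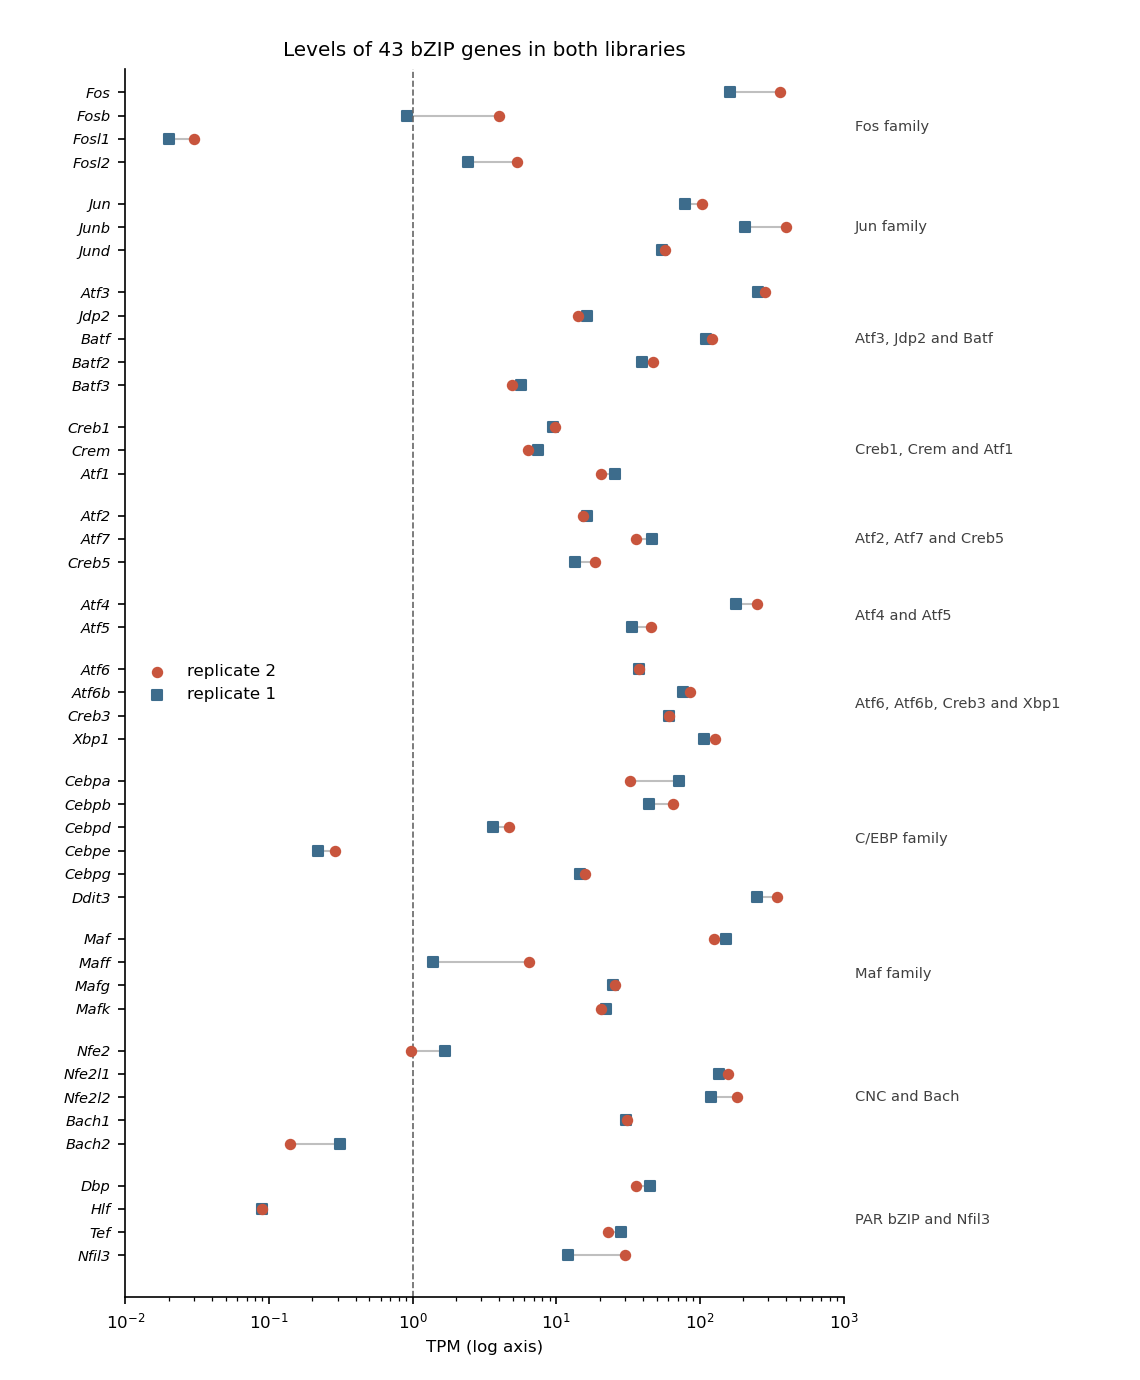
Level of each bZIP gene in TPM on a log axis, with replicate 2 as circles and replicate 1 as squares, grouped by family; the dashed line marks 1 TPM. The 10 genes at or above 100 TPM in both libraries come from 8 of the families, and the widest gaps between the libraries are those of Fosb and Maff.

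The members farthest apart between the libraries were Maff, Fosb and Nfil3, all higher in replicate 2. A ratio is given on the log2 scale as replicate 2 over replicate 1, from counts scaled by TMM, a method that matches libraries on the bulk of their genes, with 0.5 added. Its interval is an exact 95% binomial interval for counting error only. With 1 library on each side no test was possible, and a ratio is called at 2-fold or more where both libraries hold at least 20 counts. Of 40 members with that depth 6 were at least 2-fold higher in replicate 2, namely Fos, Fosb, Fosl2, Junb, Maff and Nfil3, against a background of 1.94% of 12471 genes. Cebpa was the member at least 2-fold lower, against a background of 0.521%. The other 33 lay within 2-fold. Ratios above 0 were found for 26 of the 40 members, or 65.0%, and for 46.4% of all genes, and the median ratio was 0.14 over the members and -0.02 over all genes. In the Fos and Jun families all 6 members with enough counts had ratios above 0, with a median of 1.09, and the 34 members outside these families had a median of 0.09.

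**Figure D2:**
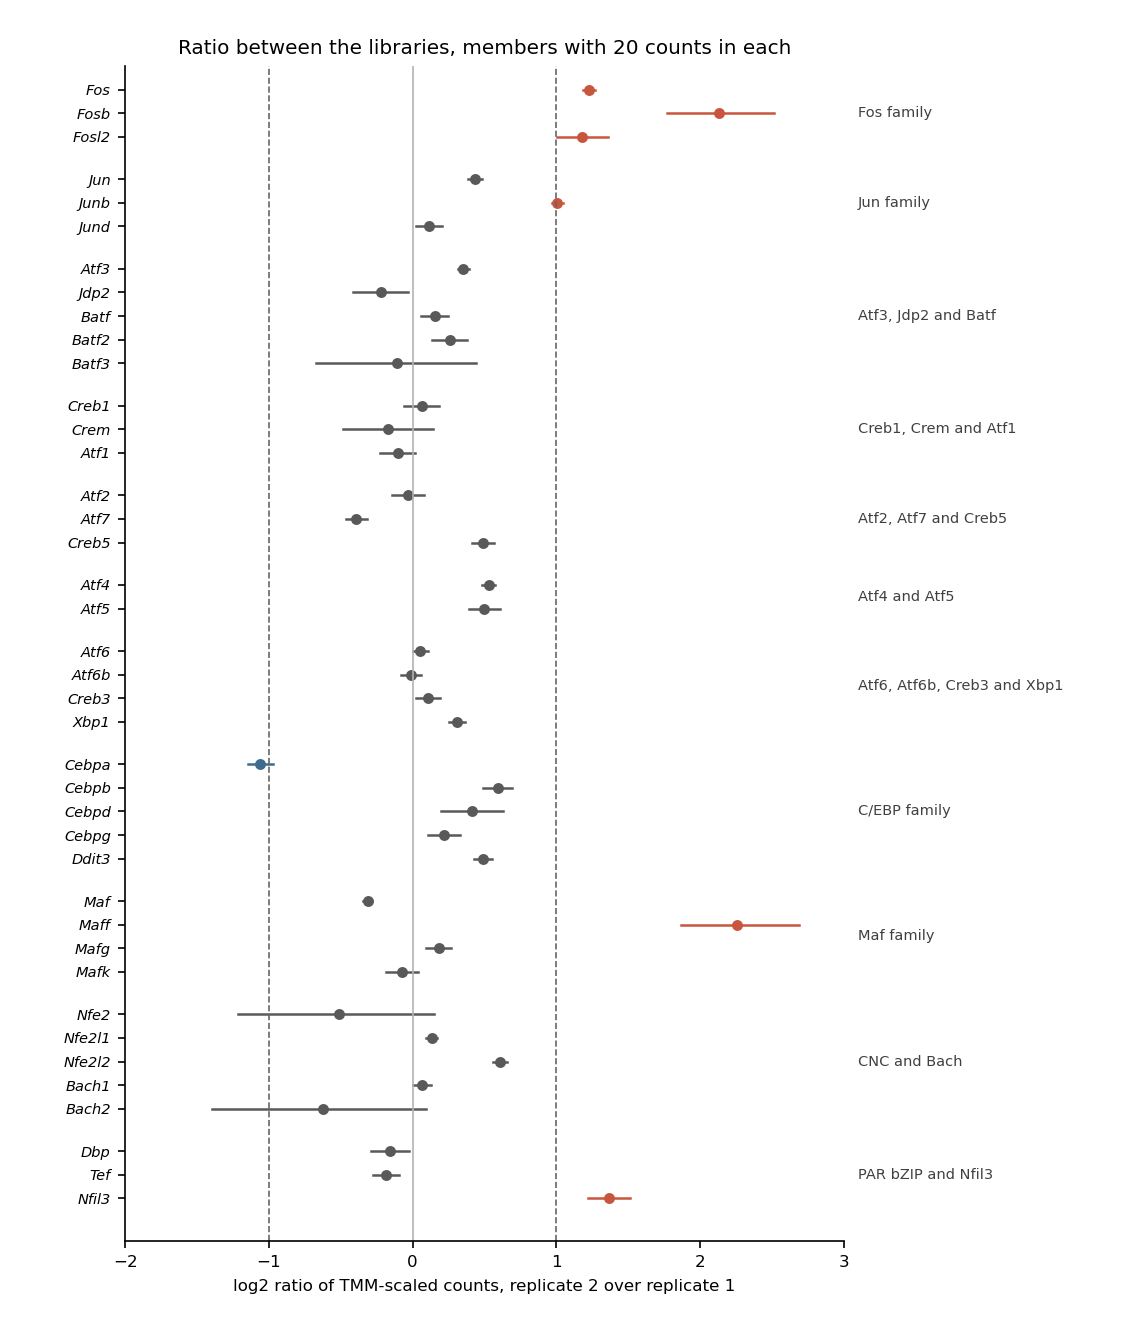
Log2 ratio of TMM-scaled counts, replicate 2 over replicate 1, for the 40 bZIP genes with at least 20 counts in each library; bars are exact 95% intervals for counting error and dashed lines mark 2-fold. Maff (2.26) and Fosb (2.13) lie farthest to the right and Cebpa (-1.06) farthest to the left.

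The starts of these 7 genes are shown because they are the members that differed by 2-fold. Each line gives the 150 bases before the RefSeq start on GRCm38.p6, 5′ to 3′ on the gene's strand. Capitals mark TGACG, the core of the cyclic AMP element, on either strand (CGTCA where reversed), and TATAAA, the TATA box. In Maff the core is part of the full palindrome TGACGTCA. Of the Maff promoters listed by RefSeq, the one shown matches the start of Maff-201, the transcript that held 91.3% of Maff TPM in replicate 2 and 100% in replicate 1, and 59.2% and 65.2% in the FASTQ-derived table.
Fos chr12:85473740-85473889 (+): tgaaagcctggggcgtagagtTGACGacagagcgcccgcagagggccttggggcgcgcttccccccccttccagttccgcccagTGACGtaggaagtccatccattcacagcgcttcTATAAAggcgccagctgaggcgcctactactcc
Fosb chr7:19310046-19310195 (-): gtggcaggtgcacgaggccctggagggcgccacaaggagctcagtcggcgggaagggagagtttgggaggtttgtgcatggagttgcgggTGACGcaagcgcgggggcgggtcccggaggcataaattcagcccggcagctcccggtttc
Fosl2 chr5:32136322-32136471 (+): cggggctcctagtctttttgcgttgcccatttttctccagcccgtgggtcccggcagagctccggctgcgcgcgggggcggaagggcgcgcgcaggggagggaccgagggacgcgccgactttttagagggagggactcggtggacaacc
Junb chr8:84978749-84978898 (-): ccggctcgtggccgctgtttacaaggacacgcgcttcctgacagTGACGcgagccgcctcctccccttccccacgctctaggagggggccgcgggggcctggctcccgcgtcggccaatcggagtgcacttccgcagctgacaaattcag
Maff chr15:79347370-79347519 (+): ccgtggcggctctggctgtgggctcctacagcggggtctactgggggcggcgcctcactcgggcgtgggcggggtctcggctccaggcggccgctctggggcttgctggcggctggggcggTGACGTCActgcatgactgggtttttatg
Nfil3 chr13:52981040-52981189 (-): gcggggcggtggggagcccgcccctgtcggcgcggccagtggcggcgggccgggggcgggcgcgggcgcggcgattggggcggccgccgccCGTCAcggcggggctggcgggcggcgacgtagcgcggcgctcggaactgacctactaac
Cebpa chr7:35119143-35119292 (+): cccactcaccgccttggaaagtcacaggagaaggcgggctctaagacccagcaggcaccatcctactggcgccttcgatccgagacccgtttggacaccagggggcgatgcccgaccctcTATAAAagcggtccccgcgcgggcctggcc
The Fos stretch holds TATAAA 33 bases before the start and TGACG 66 and 129 bases before it, and the Cebpa stretch holds TATAAA 30 bases before its start. Fosb, Junb and Nfil3 each hold TGACG once, 60, 106 and 59 bases before the start. Fosl2 holds neither motif in these bases. Junb has TATAAA directly after the RefSeq start, which is 30 bases before the start annotated by GENCODE.

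Over all promoters in the RefSeq table, 300 bases each with 250 before and 50 after the start, the same motifs were counted on both strands. Promoters were found for 35 members, while those of Atf6, Batf2, Fosl1, Cebpe, Nfe2, Maf, Crem and Cebpd were not matched. The palindrome TGACGTCA was in promoters of 3 members (Creb5, Hlf and Maff), or 8.57%, and in 1.79% of all 32851 promoters and 3.04% of those of detected genes. The Creb5 palindrome lies 286042 bases before the start of Creb5-212, which held 96.8% of Creb5 TPM in replicate 2 and 98.7% in replicate 1. Hlf stood at 0.09 TPM in both libraries. The core TGACG, which overlaps that palindrome and was chosen after the promoters were seen, was in promoters of 16 members, or 45.7%, against 20.8% of all promoters and 31.7% of those of detected genes. The AP-1 element TGACTCA was in promoters of 2 members (Creb5 and Ddit3), or 5.71%, against 5.20% of all promoters and 3.71% of those of detected genes. TATAAA was in those of 4 members (Cebpa, Cebpb, Fos and Junb), or 11.4%, below the 13.6% of all promoters and above the 7.14% of those of detected genes. In Cebpb the match begins at base 22 after the start, and it lies after the GENCODE start too. The CArG box, the element of serum response factor, was in none of the members' windows, in 1.63% of all promoters and in 1.26% of those of detected genes. Bases more than 250 before the start were not searched, so members may hold the element farther upstream. Members can have several promoters, so their shares are over genes and not over windows, whereas the shares beside them are over windows. By window TGACGTCA was in 6.52%, TGACG in 37.0%, TGACTCA in 4.35% and TATAAA in 8.70% of the members' 46 windows. The share of TGACTCA by window thus lay below the 5.20% of all promoters. A match says that the letters are present and does not show that a factor binds there.

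In the Fos family, whose proteins bind DNA only when paired with a Jun protein, Fos held nearly all the RNA. Fos (ENSMUSG00000021250.13, chromosome 12, 85473890 to 85477273) had 359 TPM in replicate 2 and 163 TPM in replicate 1, from 13755 and 8044 counts. Its ratio was 1.23 (interval 1.19 to 1.27), and it held 97.5% of the family's summed TPM in replicate 2 and 98.0% in replicate 1. Fosb had 3.96 TPM in replicate 2 and 0.92 TPM in replicate 1, from 257 and 80 counts, with a ratio of 2.13 (1.77 to 2.52). Fosl2, which encodes Fra-2, had 5.36 TPM in replicate 2 and 2.43 TPM in replicate 1 and a ratio of 1.18 (1.00 to 1.36). Fosl1, which encodes Fra-1, was at 0.03 TPM in replicate 2 and 0.02 TPM in replicate 1, about 1 count in each library and under the floor of 3 counts that a count of 0 allows. All 3 measured family members were thus higher in replicate 2 by 2-fold or more, at levels that differed widely between the genes.

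The Jun proteins pair with Fos proteins, with ATF proteins and with each other, and Junb was the most abundant of them. Junb (chromosome 8, 84974484 to 84978718) had 398 TPM in replicate 2 and 205 TPM in replicate 1, with a ratio of 1.01 (0.97 to 1.05). Its call sits at the threshold: scaling by total counts or use of the FASTQ-derived table, where the ratio was 0.96, put it below 2-fold. Jun, which encodes c-Jun, had 103 TPM in replicate 2 and 79.0 TPM in replicate 1, with a ratio of 0.44 (0.39 to 0.49). Jund, a member often expressed without stimulation, had 57.4 TPM in replicate 2 and 54.7 TPM in replicate 1 and a ratio of 0.11 (0.02 to 0.21). Junb therefore made up 71.3% of the family's summed TPM in replicate 2 and 60.5% in replicate 1, while the share of Jund was 10.3% in replicate 2 and 16.2% in replicate 1. The summed Fos family stood at 0.660 of the summed Jun family in replicate 2 and at 0.491 in replicate 1.

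Other partners on AP-1 sites differed less between the libraries. Atf3, a stress-induced repressor of cytokine genes in macrophages, had 283 TPM in replicate 2 and 256 TPM in replicate 1, with a ratio of 0.35 (0.31 to 0.39). Batf, which lacks an activation domain and binds with Jun proteins and Irf factors, had 121 TPM in replicate 2 and 111 TPM in replicate 1. Batf2 had 47.2 TPM in replicate 2 and 39.5 TPM in replicate 1, and Jdp2, a repressor that pairs with c-Jun, had 14.2 TPM in replicate 2 and 16.5 TPM in replicate 1. Batf3, known for its part in dendritic cell development, was low, at 4.93 TPM in replicate 2 and 5.66 TPM in replicate 1. The 5 ratios ran from -0.22 for Jdp2 to 0.35 for Atf3, and Atf3 held 60.1% of the group's summed TPM in replicate 2 and 59.7% in replicate 1. Of the Irf factors that bind with Batf, Irf8 had 132 TPM in replicate 2 and 180 TPM in replicate 1, whereas Irf4 stood at 0.40 TPM in replicate 2 and 0.37 TPM in replicate 1.

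Neighbouring genes of the class differed in ratio or level. Fos and Jdp2 lie 121.753 kb apart on chromosome 12, with ratios of 1.23 and -0.22, and Jdp2 and Batf lie 46.79 kb apart, with ratios of -0.22 and 0.15. Batf3 and Atf3 lie 61.35 kb apart on chromosome 1, with mean levels of 5.295 and 269 TPM. Cebpg and Cebpa lie 62.719 kb apart on chromosome 7, with ratios of 0.22 and -1.06.

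Creb1, Crem, Atf1, Atf2, Atf7 and Creb5 had ratios within 2-fold and means below those of the leading members. Atf1, a CREB relative activated by phosphorylation, led the group of Creb1, Crem and Atf1, at 20.4 TPM in replicate 2 and 25.6 TPM in replicate 1, while Creb1 and Crem had means between 1 and 10 TPM. Atf1 held 55.9% of their summed TPM in replicate 2 and 60.3% in replicate 1. Atf2, a target of the kinases p38 and JNK, had 15.4 TPM in replicate 2 and 16.2 TPM in replicate 1. Its close relative Atf7 had 35.7 TPM in replicate 2 and 46.3 TPM in replicate 1, and Creb5, of the same group, had 18.6 TPM in replicate 2 and 13.6 TPM in replicate 1. Creb5 had a ratio of 0.49 (0.42 to 0.57) and Atf7 one of -0.39 (-0.47 to -0.32). The level of Atf7 differed between the deposited tables, with a mean of 41.0 TPM from alignments and 20.2 TPM from FASTQ files. It was the only one of 39 members compared whose tables lay at least 1.5-fold apart after centring, against 2.08% of 10820 protein-coding genes.

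The stress effectors Atf4, Ddit3 and Atf5 were all somewhat higher in replicate 2, and Atf4 and Ddit3 were abundant. Atf4, the transcription factor that the integrated stress response raises by translation, had 249.6 TPM in replicate 2 and 179 TPM in replicate 1, with a ratio of 0.53 (0.48 to 0.57). Ddit3, which encodes the C/EBP relative CHOP, a target of Atf4, had 344 TPM in replicate 2 and 248 TPM in replicate 1 and a ratio of 0.49 (0.43 to 0.55). The level of Ddit3 relative to Atf4 was 1.38 in replicate 2 and 1.39 in replicate 1. Atf5, another factor under translational control, had 45.6 TPM in replicate 2 and 33.4 TPM in replicate 1.

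The factors tethered at or activated from the endoplasmic reticulum were all detected and lay within 2-fold. Xbp1, which drives chaperone and degradation genes once its mRNA has been cut by Ire1, had 128 TPM in replicate 2 and 107 TPM in replicate 1, with a ratio of 0.31 (0.25 to 0.37). Atf6, a membrane-bound sensor released by proteases, had 37.4 TPM in replicate 2 and 37.6 TPM in replicate 1. Its relative Atf6b had 84.7 TPM in replicate 2 and 76.5 TPM in replicate 1, and Creb3, another membrane-bound factor, had 61.2 TPM in replicate 2 and 61.0 TPM in replicate 1. Xbp1 held 41.1% of their summed TPM in replicate 2 and 37.9% in replicate 1.

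The active form of Xbp1 differs from the annotated one by a piece that Ire1 removes, which is shown because the tables cannot count it. The line gives the annotated transcript Xbp1-201 (chromosome 11) from GENCODE, 5′ to 3′, with the 26 bases of the piece, 818 to 843 of the transcript, in capitals.
Xbp1 transcript, bases around the removed piece: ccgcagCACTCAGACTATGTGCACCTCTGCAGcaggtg
With the piece the reading frame that starts at base 337 has 267 residues, and without it 371. Xbp1-201 held 98.3% of Xbp1 TPM in replicate 2 and 97.9% in replicate 1, and none of the 4 annotated transcripts joins the bases on either side of the piece, so the cut and uncut forms were not separated in these values.

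The C/EBP family held the member that was lower in replicate 2. Cebpa (ENSMUSG00000034957.10, chromosome 7, 35119293 to 35121928), which encodes the factor that commits precursors to the myeloid lineage, had 32.7 TPM in replicate 2 and 71.2 TPM in replicate 1, from 1470 and 4200 counts. Its ratio was -1.06 (-1.15 to -0.97). The summed level of the neutrophil and promyelocyte markers given above was lower in replicate 2 as well, at 9.88 TPM against 75.2 TPM in replicate 1. Of the 7 markers only 1 had at least 20 counts in each library. The part of these markers in the Cebpa ratio was not tested. In a bulk sample, fewer cells of a type and less RNA per cell cannot be told apart. Cebpe, which acts in late neutrophil maturation, had 6 counts in each library, at 0.29 TPM in replicate 2 and 0.22 TPM in replicate 1.

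Cebpb, the C/EBP factor of activated macrophages, ran the other way, at 65.0 TPM in replicate 2 and 44.4 TPM in replicate 1, with a ratio of 0.59 (0.49 to 0.69). The level of Cebpb relative to Cebpa was therefore 1.99 in replicate 2 and 0.624 in replicate 1, so that the order of the pair differed between the libraries. Cebpg, a partner with no activation domain of its own, had 15.9 TPM in replicate 2 and 14.7 TPM in replicate 1, and Cebpd had a mean between 1 and 10 TPM. Ddit3, whose protein pairs with other C/EBP proteins and keeps them from their usual sites, held 74.4% of the family's summed TPM in replicate 2 and 64.9% in replicate 1. Its level was 3.52 times the sum of Cebpa and Cebpb in replicate 2 and 2.15 times in replicate 1.

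Among the listed Maf genes, Maf, the only large form, had the highest level, and 1 of the small forms stood apart by its ratio. Maf, which encodes c-Maf, a large Maf protein that promotes Il10 transcription in macrophages, had 125 TPM in replicate 2 and 152 TPM in replicate 1 and a ratio of -0.31 (-0.34 to -0.28). The small Maf proteins have no activation domain and act through their partners. Maff (chromosome 15, 79346621 to 79359076) had 6.44 TPM in replicate 2 and 1.38 TPM in replicate 1, from 229 and 65 counts, with a ratio of 2.26 (1.87 to 2.69), the largest of the class. Mafg had 25.7 TPM in replicate 2 and 24.6 TPM in replicate 1, and Mafk had 20.4 TPM in replicate 2 and 22.1 TPM in replicate 1. Maff thus made up 3.63% of the summed Maf TPM in replicate 2 and 0.690% in replicate 1, and the other two small forms lay within 2-fold.

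The CNC factors that pair with small Maf proteins were led by Nfe2l2 and Nfe2l1. Nfe2l2, which encodes Nrf2, the activator of antioxidant genes that Keap1 holds in check, had 180.6 TPM in replicate 2 and 119 TPM in replicate 1, with a ratio of 0.61 (0.56 to 0.65), the highest within 2-fold. Nfe2l1, which encodes Nrf1, an activator of proteasome genes, had 158 TPM in replicate 2 and 136 TPM in replicate 1 and a ratio of 0.13 (0.10 to 0.17). Bach1, the heme-regulated repressor of the same elements, had 31.2 TPM in replicate 2 and 30.6 TPM in replicate 1, so that Nfe2l2 stood at 5.79 times the level of Bach1 in replicate 2 and at 3.91 times in replicate 1. Nfe2, an erythroid and megakaryocyte factor, had 0.98 TPM in replicate 2 and 1.68 TPM in replicate 1, from 29 and 57 counts, and its interval (-1.22 to 0.15) includes 0. Bach2, which is known from lymphocytes, had 0.14 TPM in replicate 2 and 0.31 TPM in replicate 1, and its interval (-1.40 to 0.09) includes 0 too. The small Maf genes summed to 0.142 of the CNC and Bach genes in replicate 2 and to 0.167 in replicate 1.

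The PAR factors and Nfil3 bind the same D-box elements, the PAR factors as activators and Nfil3 as a repressor. Nfil3 (chromosome 13, 52967209 to 52981073) had 30.1 TPM in replicate 2 and 12.0 TPM in replicate 1, from 1115 and 592 counts, with a ratio of 1.37 (1.22 to 1.51). Dbp had 36.1 TPM in replicate 2 and 44.7 TPM in replicate 1, and Tef had 23.1 TPM in replicate 2 and 28.2 TPM in replicate 1, with ratios of -0.16 and -0.19. Hlf had 0.09 TPM in both libraries, from 9 and 7 counts. Nfil3 therefore stood at 0.507 of the summed PAR genes in replicate 2 and at 0.165 in replicate 1.

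**Figure D3:**
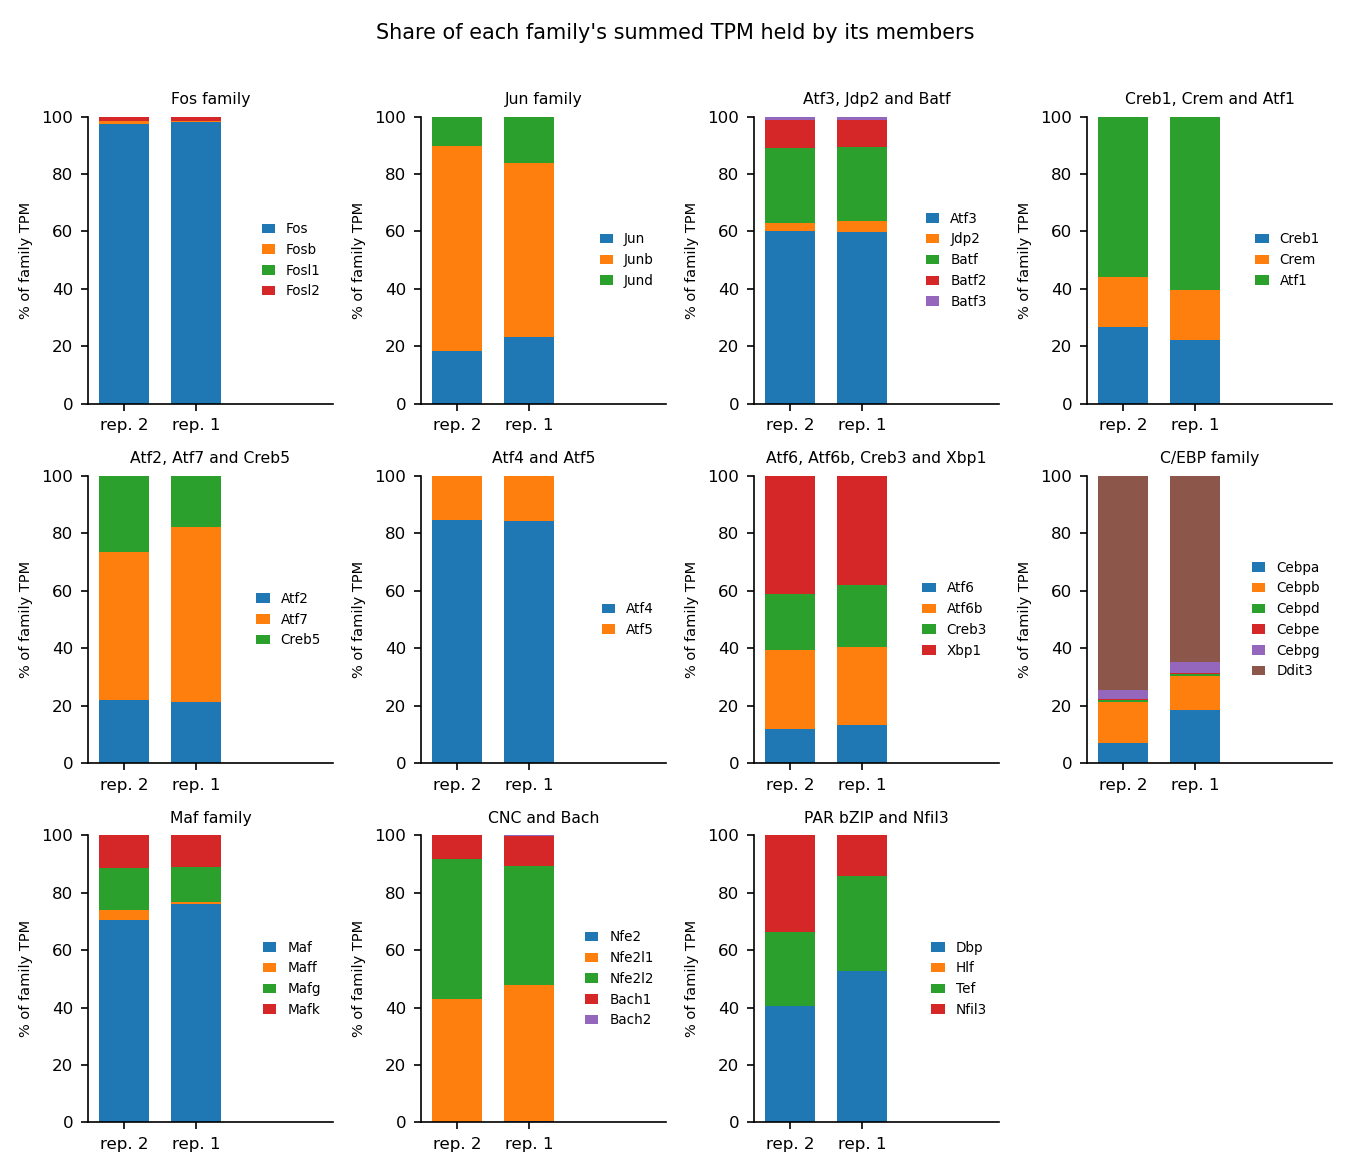
Percent of each family's summed TPM held by each member, for replicate 2 (left bar) and replicate 1 (right bar) of each panel. Fos held over 97% of the Fos family in both libraries, and the largest differences between the bars are those of Nfil3 (33.6% in replicate 2 and 14.2% in replicate 1), Dbp (40.4% in replicate 2 and 52.6% in replicate 1) and Cebpa (7.07% in replicate 2 and 18.6% in replicate 1).

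Genes that act with the bZIP factors were described from 8 lists. All 15 early genes with no bZIP domain had 20 counts or more in each library. Of these, 9 were at least 2-fold higher in replicate 2 and none lower. Over all 12471 genes with that depth, 1.94% were at least 2-fold higher and 0.521% lower. All 15 ratios of the early genes were above 0, with a median of 1.07. Zfp36, which speeds decay of cytokine mRNAs, had 787 TPM in replicate 2 and 387 TPM in replicate 1, Egr1 had 291 TPM in replicate 2 and 143 TPM in replicate 1, and Klf6 had 254 TPM in replicate 2 and 156 TPM in replicate 1. The largest ratios were 2.32 for Nr4a1, an orphan nuclear receptor, 2.27 for Egr2, 1.56 for Ier2, 1.45 for the MAP kinase phosphatase Dusp1 and 1.42 for Btg2. Early genes can be switched on by the same kinases as Fos and Junb. The list was written with earlier results of these data known, so it is no independent support. Its ratios had the same direction as those of the Fos and Jun families, in which Jun (0.44) and Jund (0.11) lay within 2-fold. The source of the difference between the libraries was not tested.

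None of the 14 MAP kinases, their activators and SRF partners was 2-fold apart, and their median ratio was -0.03. Mapkapk2, the kinase below p38, was highest at 227 TPM in replicate 2 and 176 TPM in replicate 1. Mapk3 had 101 TPM in replicate 2 and 120 TPM in replicate 1. The 10 CREB co-activators and kinases were all within 2-fold, with a median of -0.09. Their highest members were subunits of protein kinase A, with Prkar1a at 124 TPM in replicate 2 and 131 TPM in replicate 1, Prkacb at 73.8 and 80.0 TPM, and Prkaca at 48.7 and 57.4 TPM.

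Over 15 genes of the unfolded protein and integrated stress responses the median ratio was 0.29, with 12 ratios above 0. The shares of all genes at least 2-fold higher and lower were 1.94% and 0.521%. In this list 1 gene was at least 2-fold higher in replicate 2 and none lower. That gene was Ppp1r15a, which encodes Gadd34, the phosphatase subunit that ends the translational block, at 349 TPM in replicate 2 and 63.4 TPM in replicate 1 and a ratio of 2.43 (2.38 to 2.48). The chaperone gene Hspa5 had 643 TPM in replicate 2 and 437 TPM in replicate 1, and Hsp90b1 had 295 TPM in replicate 2 and 348 TPM in replicate 1. Ppp1r15a thus had a larger ratio than Atf4 and Ddit3, which are known to raise its transcription.

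Among 9 genes of the Keap1 system and its antioxidant targets 2 were at least 2-fold higher in replicate 2 and none was lower. The shares over all genes were 1.94% higher and 0.521% lower. The median of the list was -0.05. Hmox1, which breaks down heme, was highest but lower in replicate 2, at 370 TPM against 538 TPM in replicate 1, with a ratio of -0.50 (-0.53 to -0.47). Keap1 had 63.1 TPM in replicate 2 and 75.8 TPM in replicate 1, and Cul3, its ligase partner, had 59.7 and 68.1 TPM. The 2-fold members were low, with Nqo1 at 3.63 TPM in replicate 2 and 0.89 TPM in replicate 1 and Slc7a11 at 0.78 and 0.36 TPM. Of the 9 ratios 4 were above 0, whereas that of Nfe2l2 was 0.61.

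The 10 circadian clock genes, several of which share D-box control with the PAR factors, were all within 2-fold, with a median of 0.12. Nr1d2 was highest at 18.2 TPM in replicate 2 and 14.7 TPM in replicate 1, followed by Per1 at 7.66 and 7.54 TPM and Cry1 at 5.32 and 6.92 TPM. Of 11 further bZIP genes that are not among the 43, 7 were detected and none was 2-fold apart, with a median of -0.09. Among them Crebzf had 27.7 TPM in replicate 2 and 17.3 TPM in replicate 1, and Creb3l1 had 12.2 TPM in replicate 2 and 13.5 TPM in replicate 1.

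**Figure D4:**
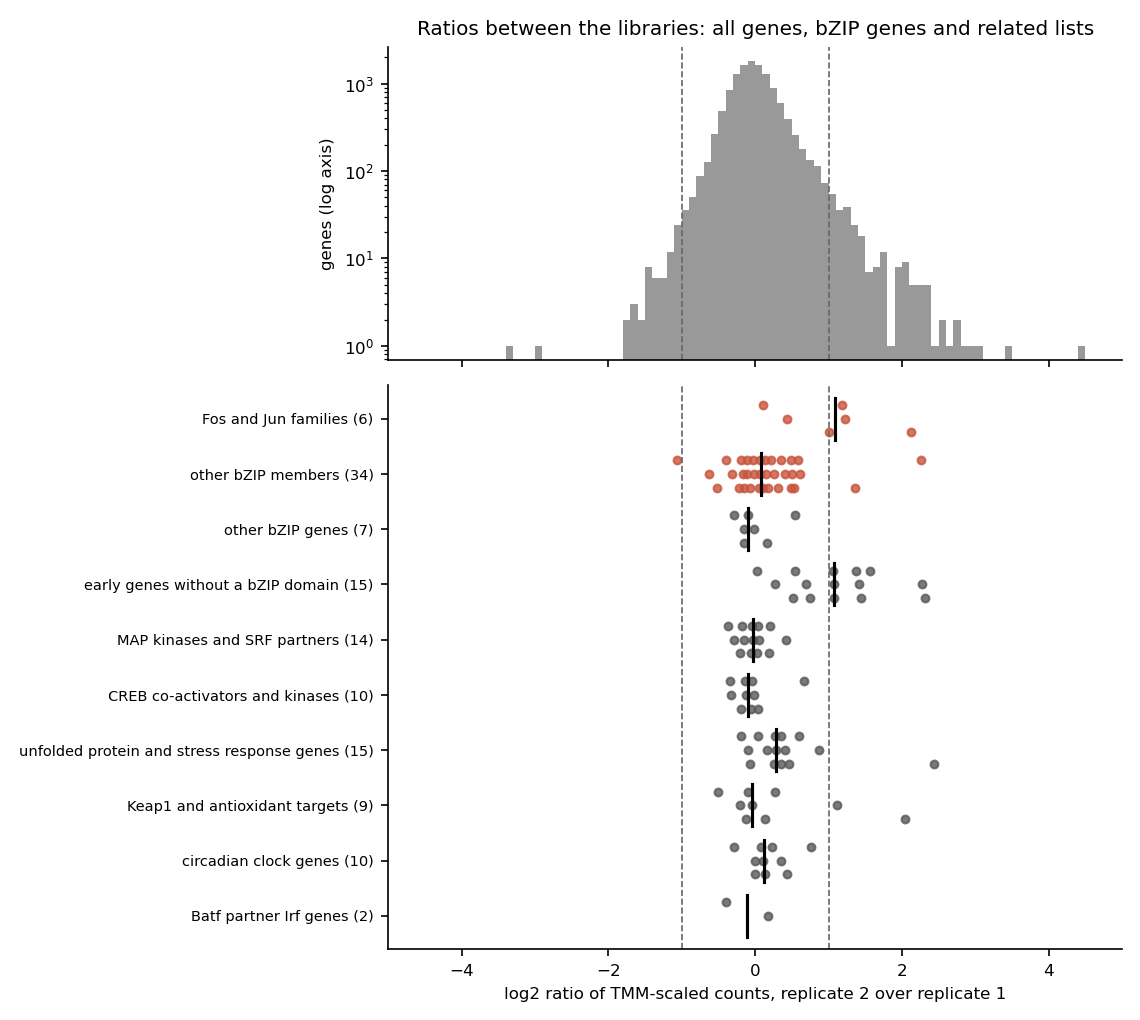
Log2 ratios of TMM-scaled counts, replicate 2 over replicate 1, with the distribution over all 12471 genes with at least 20 counts in each library above (gene number on a log axis) and the bZIP genes and related lists below; each point is a gene, each black line a list's median, and dashed lines mark 2-fold. The medians of the Fos and Jun families (1.09) and of the early genes (1.07) lie near the 2-fold line, and the other lists lie between -0.11 and 0.29.

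Most members were read mainly as a single transcript. Among the 31 members with a mean of 10 TPM or more, the leading annotated transcript held over 90% of the gene's TPM in 17 and under 60% in 6, with a median of 94.0% in the alignment-derived table and 93.3% for the same transcripts in the FASTQ-derived table. The 2 tables named the same leading transcript for 28 of the 31. Jun, Jund, Cebpb and Nfil3 have 1 annotated transcript each, so their share of 100% and their leading transcript were fixed in advance. They are included in these counts and medians. Transcripts annotated as non-coding or as targets of nonsense-mediated decay together passed 10% in both libraries and both tables for 4 of these 31 members. These were Dbp, Atf3, Batf2 and Tef. Tef passed in replicate 1 only with the short transcript Tef-205, which had 3 counts there in the alignment-derived table.

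The retained-intron transcript Dbp-202 held 39.5% of Dbp TPM in replicate 2 and 48.7% in replicate 1, and 40.3% and 49.9% in the FASTQ-derived table. The processed transcript Atf3-202, which has no coding frame, held 12.2% of Atf3 TPM in replicate 2 and 23.2% in replicate 1, and 19.4% and 30.7% in the FASTQ-derived table. Both shares were lower in replicate 2 in either table. Atf3-202 is short, at 517 bases, so its share of counts was far smaller than its share of TPM. It held 171.63 of 9173 Atf3 counts in replicate 2 and 417.32 of 9832 in replicate 1. Dbp-202, at 815 bases against 1837 in Dbp-201, held 160.41 of 794.72 Dbp counts in replicate 2 and 331.87 of 1214.81 in replicate 1. Its share of counts was thus also smaller than its share of TPM. The leading coding form Atf3-201 held 87.8% of Atf3 TPM in replicate 2 and 76.8% in replicate 1. The non-coding transcripts of Batf2 together held 22.4% in replicate 2 and 16.5% in replicate 1. Those of Tef held 13.0% in replicate 2 and 16.4% in replicate 1. Most of the Tef share in replicate 1 was Tef-205, of 248 bases, which held 11.7% there from 3 counts. The retained-intron transcripts Tef-203 and Tef-207 held 2.23% and 2.48% in replicate 1. In replicate 2 Tef-205 had 0 counts, and these held 5.81% and 7.24%.

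Of the 2 annotated forms of Maf, Maf-202, a single exon of 6360 bases, held 69.6% of Maf TPM in replicate 2 and 80.1% in replicate 1, and 72.6% and 82.2% in the FASTQ-derived table. For Fosb, the transcript Fosb-206 with 711 coding bases, against 1014 in Fosb-201, held 13.9% of TPM in replicate 2 and 14.1% in replicate 1, which rests on 9.35 and 2.89 counts. Crem was the most divided member, with 39 annotated transcripts, of which 6 passed 5% on average and the leading one held 19.8%.

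Among the members with a mean of 10 TPM or more, 6 had a transcript whose share was over 15 percentage points higher in the alignment-derived table, and so did the lower members Creb1, Maff, Bach2 and Hlf. The short transcript Atf7-201, of 390 bases, took 51.6% of Atf7 TPM in replicate 2 and 46.0% in replicate 1 in the alignment-derived table, from 47.02 and 80.09 counts, whereas FASTQ files gave it next to nothing. Atf6b-205, of 386 bases, took 34.7% of Atf6b TPM in replicate 2 and 23.0% in replicate 1 and was listed at 0 in the FASTQ-derived table. Cebpa-202 held 50.0% of Cebpa TPM in replicate 2 and 53.4% in replicate 1, but 31.2% and 38.1% in the FASTQ-derived table. Nfe2l1-212 held 29.7% in replicate 2 and 28.2% in replicate 1, but 14.3% and 7.93% in the FASTQ-derived table. Atf1-201 held 99.1% in replicate 2 and 83.3% in replicate 1, but 84.9% and 63.9% in the FASTQ-derived table, and Cebpg-202 held 80.7% in replicate 2 and 77.5% in replicate 1, but 64.3% and 59.3%. Maff-201 averaged 95.7% of Maff TPM in the alignment-derived table and 62.2% in the FASTQ-derived table, and Creb1-202 averaged 55.2% and 34.1% of Creb1 TPM. The TPM of Atf7 and Atf6b in the alignment-derived table therefore rests in part on short transcripts with few counts.

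**Figure D5:**
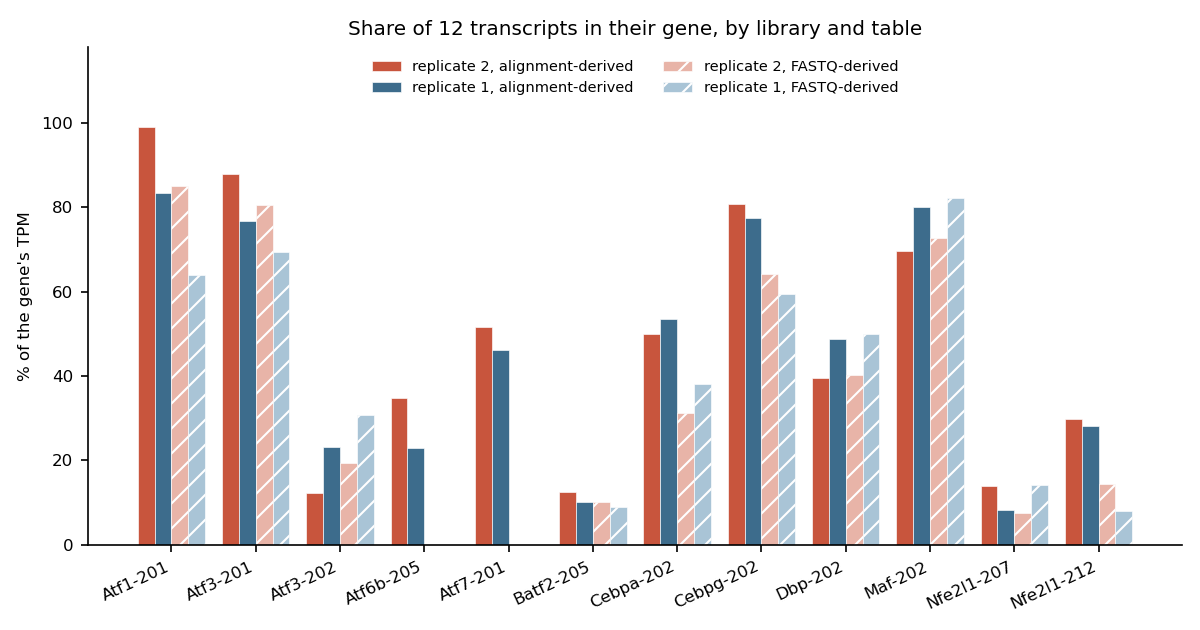
Percent of its gene's TPM held by 12 transcripts, with replicate 2 and replicate 1 side by side in the alignment-derived table (solid bars) and in the FASTQ-derived table (hatched bars). Drawn are non-coding transcripts over 10%, those over 15 percentage points higher in the alignment-derived table, and leading ones over 9 points apart between the libraries in the same direction in both tables. Atf3-202, Dbp-202 and Maf-202 had lower shares in replicate 2 in both tables, and Atf6b-205 and Atf7-201 had no visible share in the FASTQ-derived table.

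Some members share sequence or position with other genes, and the sources used here do not say whether strand was used in counting. Another annotated gene overlapped 26 of the 43, on the opposite strand for 20, and the overlapping gene was itself at 1 TPM or more in both libraries for 11. The 351 bases at which Junb overlaps Prdx2 (186 TPM in replicate 2 and 179 TPM in replicate 1) and the 2156 bases at which Maf overlaps its antisense gene Gm15655 (79.7 and 139 TPM) are examples. Cebpb overlaps Tmem189 over 908 bases and Dbp overlaps Sphk2 over 737 bases. Levels of these members are uncertain to the extent that reads of the partner were counted with them.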

How the data were processed

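Polyadenylated RNA from 2 libraries of the only group was sequenced, each from 1 µg of RNA, per the labels. The authors deposited 3 tables per library on mm10 with GENCODE M21, per the submitters' processing notes, while the aligner and counting tools are not named there. Of these, a gene table and a transcript table made from alignments hold expected counts, TPM and posterior standard deviations of the count, per the file headers. The FASTQ-derived transcript table, made from 4 FASTQ files, holds estimated counts and TPM, per the file headers. The gene table was the main one, and its expected counts were rounded to whole numbers. Entries with no gene numbered 26345 and held 0.0667% of counts in replicate 2 and 0.0526% in replicate 1, and they stayed out of library sizes. The floor behind a count of 0 is 3 counts, which is 0.0975 CPM in replicate 2 and 0.0715 CPM in replicate 1, and intervals and floors cover counting error only.

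TMM factors came from edgeR 4.0.16 and alternative size factors from DESeq2 1.42.0, in R 4.3.3, and the rest was computed in Python 3.11.15. No test was run, since there is 1 group of 2 libraries, and the spread between them may be technical. The ratio step was tested on simulated data. Levels are given for every member with a mean of 10 TPM or more, at least 2-fold apart, or below 1 TPM in either library, for the 3 highest and the 2-fold members of each related list (up to 5), and for the highest of each marker list, whose other values are given by their counts and sums. Any other gene named was picked with its values known. Some genes that this rule would name are not reported here. The symbol Ddit3 has a second entry with 0 counts, and the entry with reads was used. The members and lists were chosen with earlier results of these data known. Promoters are RefSeq's, on GRCm38.p6. A comparison of the bZIP protein sequences was not analysed here. Alternatives covered the scaling, the count and TPM thresholds, the added count, the table and leaving out each library.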

Additional observations from a re-analysis of the deposited data

How the results depend on the processing

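Over the alternatives run, 1 of 40 ratios changed sign, that of Batf3, which was -0.11 and became 0.0038 in the FASTQ-derived table, within its counting interval. Members lay below all promoters and above those of detected genes in TATAAA. No count of members called or detected moved by more than 1.5 times. The number of members detected was 39 at 0.5 TPM, 33 at 5 TPM, 37 in the FASTQ-derived table, and 38 with either library left out. The 6 members higher in replicate 2 remained under DESeq2 size factors, without a filter on counts and with 5 counts added. Total counts and the FASTQ-derived table each left 5, without Junb, and a minimum of 100 counts left 4, without Fosb and Maff, which hold 80 and 65 counts in replicate 1. Cebpa was the member called lower in every one of these. The median ratio of the members ran from 0.11 in the FASTQ-derived table to 0.18 without a filter, and the median over all genes shifted by at most 0.0074 between scalings. Counts over all genes depended more on the filter: 242 genes were higher and 65 lower at 20 counts, 104 and 32 at 100 counts, and 2993 and 2581 with no filter, where 14.2% of genes were higher. The FASTQ-derived table moved 6 of 40 ratios beyond their counting interval (Jun, Junb, Atf4, Atf5, Maf and Nfe2l1), 18 of 43 mean levels and 4 of 11 leading family shares beyond the spread between the libraries, and the cause was not tested. The mean levels were compared without centring, and over protein-coding genes the FASTQ-derived TPM had a median of 0.885 times the alignment-derived TPM. After centring, Atf7 was the only member at least 1.5-fold apart. The share of Atf7 in its group was 56.0% from alignments and 39.6% from FASTQ files. Depth limits Fosl1, Cebpe and Hlf, which hold under 20 counts in each library. No paired analysis was possible because there is only 1 group.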
